A study of Mus musculus with 8 samples.

Results

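Pax3, Pax7, Myf5, Myod1, Myog and Myf6 are the transcription factor genes that carry a muscle stem cell from the progenitor state into differentiation. These 6 genes were taken by symbol from 3 deposited expression tables, out of 23115, 22923 and 22777 loci with a gene symbol in the female knockout, male knockout and KI tables. Each member had a locus of its own in every table, merged with no other gene and with an estimate marked as successful. The cells were differentiating myoblasts of B6/129 mice, grown from satellite cells, the stem cells of skeletal muscle. The labels give the female knockout (KO) mice a floxed UTX gene together with Pax7-CreER and a Cre-dependent TdTomato reporter at Rosa26, and the female wild type (WT) mice the same Cre and reporter without the floxed gene. UTX, encoded by the X-linked gene Kdm6a, is a histone demethylase. For the male KO, male WT, KI and Ctrl-KI mice, the last 2 groups female, the labels name the group but list no alleles, and ages are not given for any group. In the published work on these mice, KI is known as a UTX whose demethylase function was lost by mutation, a statement that the labels do not make. There was 1 library each for female KO, female WT, male KO and male WT cells, and 2 libraries each for KI and Ctrl-KI cells. All groups were handled alike per the labels' protocols, with sorting of reporter-positive cells, growth in 20% fetal calf serum, 2.5 ng/mL FGF and 2.5 µM 4-hydroxytamoxifen, and 24 h of differentiation. Because Pax7 drove the Cre, the sort selected cells by the past activity of a member, and the labels do not say whether the Cre insertion altered the Pax7 gene itself.

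Pax3 and Pax7 are paired box factors of muscle progenitors, and Pax7 is the classical nuclear marker of satellite cells. Myf5 and Myod1 commit cells to the muscle lineage, Myog (myogenin) drives entry into differentiation, and Myf6 (also called MRF4) acts in differentiating cells and fibres. These last 4, the myogenic regulatory factors (MRFs), are basic helix-loop-helix proteins that bind the E-box, CANNTG, as dimers with E proteins. UTX is known to remove the silencing mark H3K27me3 from muscle genes, Myog among them, as myoblasts differentiate.

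Promoter windows from RefSeq (build GRCm38.p6, 250 bases before to 50 bases after the annotated start) were found for 3 of the 6 members: Myog, Myf5 and Pax7. They are shown as the members for which a window was found, and they hold a progenitor factor, a determination factor and a differentiation factor. Capitals mark matches to 4 motifs, each searched on both strands. The E-box is CANNTG. The core of the MEF3 site, bound by homeobox factors, is TCAGGTT. The core of the MEF2 site is a pair of TA steps that flank 4 bases of A or T, and its match in the Myog window reads TATATTTA. The last motif was TATAAA. The Myog window lies at chr1:134289754-134290053 on the plus strand, the Myf5 window at chr10:107486085-107486384 and the Pax7 window at chr4:139832919-139833218, both on the minus strand.
Myog: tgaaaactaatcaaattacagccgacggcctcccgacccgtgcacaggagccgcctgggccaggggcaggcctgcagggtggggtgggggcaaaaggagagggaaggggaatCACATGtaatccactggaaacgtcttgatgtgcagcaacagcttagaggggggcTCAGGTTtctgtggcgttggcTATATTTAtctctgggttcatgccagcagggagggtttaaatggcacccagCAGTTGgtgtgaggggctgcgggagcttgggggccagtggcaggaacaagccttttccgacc
Myf5: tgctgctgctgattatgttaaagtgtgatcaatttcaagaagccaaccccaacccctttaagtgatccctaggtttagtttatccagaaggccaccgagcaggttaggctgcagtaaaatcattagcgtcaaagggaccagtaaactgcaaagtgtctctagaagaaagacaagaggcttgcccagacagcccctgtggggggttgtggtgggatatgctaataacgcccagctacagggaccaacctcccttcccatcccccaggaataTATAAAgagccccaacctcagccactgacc
Pax7: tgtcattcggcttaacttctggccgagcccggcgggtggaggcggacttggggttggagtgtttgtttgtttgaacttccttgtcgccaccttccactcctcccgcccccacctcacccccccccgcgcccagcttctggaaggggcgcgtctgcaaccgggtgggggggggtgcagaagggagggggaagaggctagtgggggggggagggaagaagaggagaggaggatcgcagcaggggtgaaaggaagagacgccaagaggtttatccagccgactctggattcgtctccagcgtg
The Myog window held 2 E-boxes, which begin 138 and 12 bases before the start, the MEF3 core 84 bases before it and the MEF2 core 63 bases before it. An E-box was present in 72.3% of 32851 windows of the same length, the MEF3 core in 4.07%, the MEF2 core in 9.32%, and all 3 together in 0.323%. The stricter MEF2 consensus, found in 3.19% of windows, had no match in the 3 printed. Neither the Myf5 nor the Pax7 window held an E-box, and TATAAA, present in 13.6% of windows, was matched in the Myf5 window alone among the 3. Its first letter there is base 21 counted from the start, with the start itself included. These matches describe letters in a window and are not evidence of binding.

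Expression was deposited as FPKM, fragment counts scaled to transcript length and to library size, with a lower and an upper confidence bound. No group had replicate values, since each KO and WT column was 1 library and the KI and Ctrl-KI columns each pooled 2 libraries. A single comparison therefore has no p-value, the deposited bounds are its only error, and read depth is unknown. Ratios are log2((FPKM + 1)/(FPKM + 1)), mutant over control within a table, which understates the change of low genes. A gene was tested where at least 1 of the 2 columns reached 1 FPKM, which left 12344 genes for female KO, 11440 for male KO and 11084 for KI cells, with median ratios of -0.08, -0.02 and -0.04. All 6 members passed that filter in each table. Coordinates of members below are those of the female table. The median width of the bounds, relative to the value itself, was 119% in the female WT column, 171% in the male WT column and 40.0% in the Ctrl-KI column, so the KI table resolves smaller differences. The targeted gene, Kdm6a, was 16.9 FPKM in female KO and 20.8 FPKM in female WT cells, 2.08 FPKM in male KO and 7.87 FPKM in male WT cells, and 13.2 FPKM in KI and 12.8 FPKM in Ctrl-KI cells. Its bounds overlapped in each table, and the values cover the whole gene, so they check the deletion only weakly.

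Markers of other cell types and of cycling cells also differed between columns. Among all genes tested, 4.49% were at least 2-fold higher in female KO, 9.9% in male KO and 3.86% in KI cells. Summed over 5 cycling-cell markers, the level was 60.0 FPKM in female KO and 24.8 FPKM in female WT cells, and 76.8 FPKM in male KO and 12.3 FPKM in male WT cells, with 3 of 5 and 5 of 5 markers at least 2-fold higher. In KI cells the cycling sum was 77.9 FPKM and in Ctrl-KI cells 83.9 FPKM, with 0 of 4 markers tested past 2-fold. Most of both sums was the Birc5 locus, merged there with Afmid and Syngr2, at 68.9 and 76.8 FPKM. The KI and Ctrl-KI sums are therefore not comparable to the KO and WT sums. Mki67, Top2a, Ccnb1 and Cdk1 were each higher in KI than in Ctrl-KI cells, by less than 2-fold. The 5 fibro-adipogenic markers summed to 552 FPKM in female KO and 228 FPKM in female WT cells, to 66.3 FPKM in male KO and 18.2 FPKM in male WT cells, and to 302 FPKM in KI and 9.62 FPKM in Ctrl-KI cells. Of those tested, 3 of 5 were at least 2-fold higher in female KO, 2 of 3 in male KO and 4 of 5 in KI cells. Most of both male sums was Col3a1, at 59.1 FPKM in KO and 16.4 FPKM in WT cells. The 5 endothelial markers summed to 23.1 and 12.6 FPKM in female KO and WT cells, to 56.6 and 0.168 FPKM in male KO and WT cells, and to 1.23 and 0.125 FPKM in KI and Ctrl-KI cells. Of the macrophage markers, Csf1r was 2.58 FPKM in female KO and 0.477 FPKM in female WT cells. Lyz2 was 7.94 FPKM in male KO and 0.681 FPKM in male WT cells, and 31.0 FPKM in KI and 0.282 FPKM in Ctrl-KI cells, while Ptprc stayed under 0.3 FPKM in all columns and was listed at 0 in female WT cells. Acta2, the most abundant mural marker and one that myoblasts also express, was at least 2-fold lower in KO cells of both sexes, at 312 FPKM in female KO and 663 FPKM in female WT cells and at 724 FPKM in male KO and 2000.3 FPKM in male WT cells. The remaining 4 mural markers were at least 2-fold higher in 1 case in female KO cells (Pdgfrb), 1 in male KO cells (Rgs5) and 2 in KI cells (Cspg4 and Pdgfrb). With Acta2 included, 5 mural markers were tested in the female, 2 in the male and 4 in the KI table. Of 4 Schwann cell markers, 0 were at least 2-fold higher or lower in any table. In bulk RNA, fewer cells of a type and less RNA per cell cannot be told apart, and the part of these markers in the results below was not tested.

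The paired box genes stood higher in KO than in WT myoblasts of both sexes, and past 2-fold in males. Pax7 (mm9 chr4:139293996-139388883) was 5.54 FPKM in female KO cells (bounds 2.32 to 8.76) and 4.33 FPKM in female WT cells (1.64 to 7.01), a log2 ratio of 0.30. In males it was 16.3 FPKM in KO cells (4.62 to 28.0) and 5.82 FPKM in WT cells (1.20 to 10.4), a log2 ratio of 1.34. The male KO library was thus the highest of the 6 columns for Pax7, and its bounds still overlapped those of male WT. Pax3 (mm9 chr1:78097842-78193711), the factor that precedes Pax7 in the embryo and is low in most adult limb satellite cells, was 1.79 FPKM in female KO cells (0.415 to 3.16) and 0.811 FPKM in female WT cells (0.0709 to 1.55). In males Pax3 was 2.86 FPKM in KO cells (0 to 6.11) and 0.571 FPKM in WT cells (0 to 1.31), with log2 ratios of 0.62 in females and 1.30 in males. Pax3 reached 1 FPKM in the KO column alone in both sexes and would not have been tested otherwise, so its direction there comes with the filter. Of the 2 paired box members, 0 were at least 2-fold higher in female KO and 2 in male KO cells, against 4.49% and 9.9% of all genes tested. Rescaled to TPM over all loci, the male ratios were 0.56 for Pax7 and 0.55 for Pax3, under 2-fold.

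Neither gene was higher in KI than in Ctrl-KI cells. Pax7 was 3.30 FPKM in KI cells (2.62 to 3.98) and 3.33 FPKM in Ctrl-KI cells (2.66 to 4.00), a log2 ratio of -0.01 whose bounds allow -0.46 to 0.44 and whose sign depends on the scaling. Pax3 was 0.653 FPKM in KI cells (0.490 to 0.817) and 1.20 FPKM in Ctrl-KI cells (0.936 to 1.47), a log2 ratio of -0.41. It was the 1 member of 6, in any table, whose bounds did not overlap between the columns. Bounds were apart for 8.27% of genes with the higher value in KI cells and for 3.73% with the lower one. In female KO cells 0.664% of genes had bounds apart upward and 0.235% downward, in male KO cells 0.603% and 0.262%, and 0 of 6 members did. Pax3 entered this comparison through the Ctrl-KI column alone. The other 7 Pax family genes stayed under 0.1 FPKM in every column, and Pax5 and Pax8 were listed at 0 throughout.

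**Figure D1:**
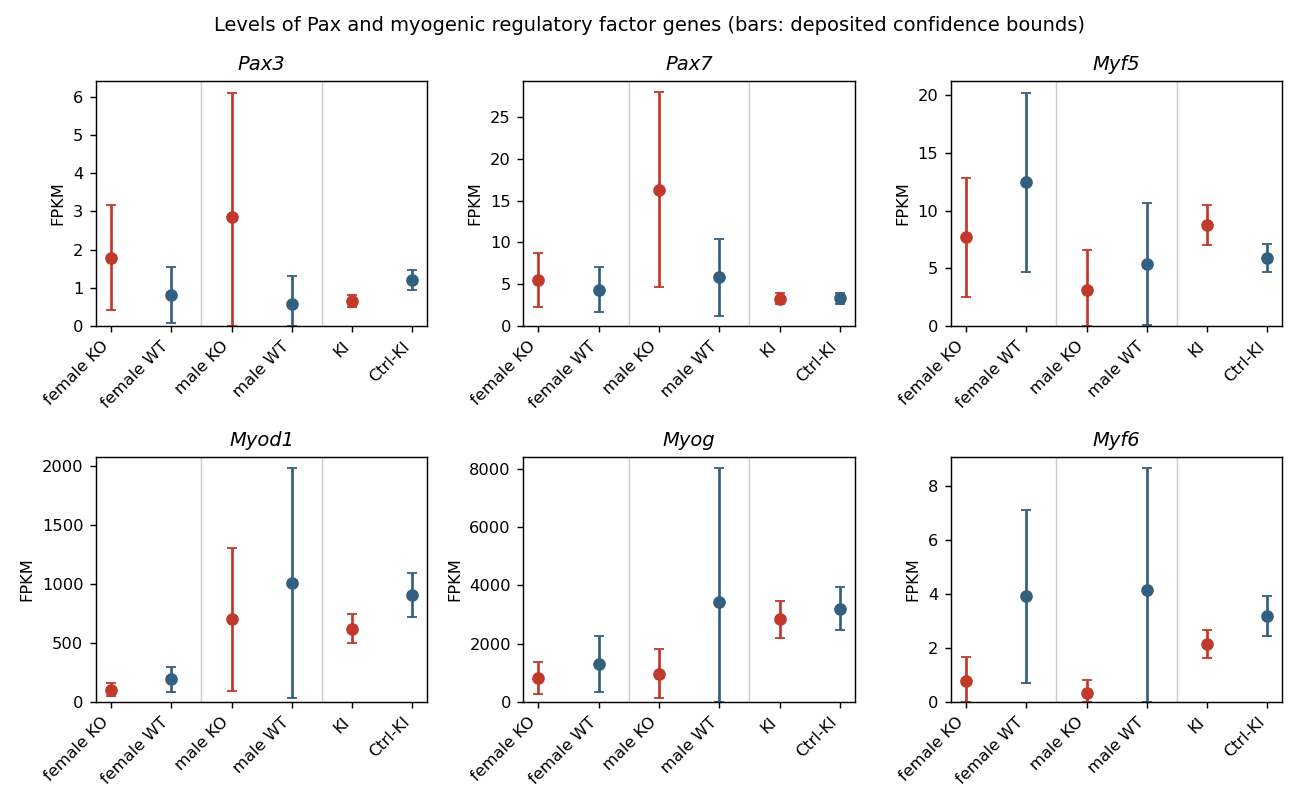
Level of each member in FPKM on a linear axis from 0, for female KO, female WT, male KO, male WT, KI and Ctrl-KI cells; points are the deposited values and bars the deposited confidence bounds, with mutant columns in red and control columns in blue. Pax7 peaked in male KO cells at 16.3 FPKM, and Myf6 was under 1 FPKM in both KO columns and above 2 FPKM in the other 4.

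The determination factors were lower in KO myoblasts of both sexes without reaching 2-fold. Myod1 (mm9 chr7:53631844-53634462) was 103.5 FPKM in female KO cells (48.7 to 158) and 189.9 FPKM in female WT cells (84.8 to 295), a log2 ratio of -0.87. In males it was 701 FPKM in KO cells (94.8 to 1308) and 1005 FPKM in WT cells (29.5 to 1980.0), a log2 ratio of -0.52. Myod1 was also lower in KI cells, at 620 FPKM (497 to 743), than in Ctrl-KI cells, at 906 FPKM (722 to 1090.2), a log2 ratio of -0.55. The Myod1 columns of the KI table overlapped only in the narrow range between 722 and 743 FPKM, and 3.90% of genes in that table had a lower ratio. Myod1 was therefore below its control in all 3 tables. In KI cells 5 of 6 members lay below Ctrl-KI, against 57.4% of all genes. That count includes Pax3, which was tested through the Ctrl-KI column alone, and Pax7, whose sign depends on the scaling. Nothing is read from it. With TPM over all loci the Myod1 ratio passed 2-fold downward in the male and KI tables, at -1.31 and -1.38.

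Myf5 (mm9 chr10:106919964-106923190) was the one MRF whose direction in KI cells was opposite to that in KO cells. It was 7.69 FPKM in female KO cells (2.54 to 12.8) and 12.5 FPKM in female WT cells (4.68 to 20.2), and 3.17 FPKM in male KO cells (0 to 6.57) and 5.38 FPKM in male WT cells (0.0635 to 10.7). Its log2 ratios were -0.63 in females and -0.61 in males. In KI cells it was 8.76 FPKM (7.02 to 10.5), against 5.91 FPKM in Ctrl-KI cells (4.69 to 7.13), a log2 ratio of 0.50 that turned to -0.22 with TPM over all loci. Because Myf5 is a known target of Pax7, the pair is of interest side by side: Pax7 lay above and Myf5 below WT in both sexes. The difference between the KI and KO ratios was not tested.

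Myog, the most abundant member in every column, was lower in KO myoblasts, by less than 2-fold in females and by more in males. Myog (mm9 chr1:136186581-136189125) was 817 FPKM in female KO cells (257 to 1376) and 1305 FPKM in female WT cells (338 to 2273), a log2 ratio of -0.68. It was 961 FPKM in male KO cells (115 to 1807) and 3424 FPKM in male WT cells (0 to 8008), a log2 ratio of -1.83. The male WT bounds are so wide that the male difference is not resolved by the deposited error. In KI cells Myog was 2827 FPKM (2195 to 3459) and in Ctrl-KI cells 3201 FPKM (2468 to 3935), a log2 ratio of -0.18 with overlapping bounds. The Myog level of the 2 KO columns was thus below that of all 4 other columns, although tables were estimated separately and levels across them were not tested.

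Myf6 was lower in KO myoblasts of both sexes, and past 2-fold in each. Myf6 (mm9 chr10:106929916-106931785), which lies 6.72 kb from Myf5 on the upstream side, was 0.769 FPKM in female KO cells (0 to 1.65) and 3.91 FPKM in female WT cells (0.703 to 7.12), a log2 ratio of -1.47. It was 0.345 FPKM in male KO cells (0 to 0.803) and 4.12 FPKM in male WT cells (0 to 8.64), a log2 ratio of -1.93. Without a pseudocount these are 5.09-fold and 11.97-fold lower values in KO cells, at levels where few fragments decide the estimate. Myf6 reached 1 FPKM in the WT column alone in both sexes, so its direction, too, comes with the filter. In KI cells it was 2.14 FPKM (1.61 to 2.68) and in Ctrl-KI cells 3.17 FPKM (2.44 to 3.90), a log2 ratio of -0.41 with overlapping bounds. With a pseudocount of 5 FPKM the KO ratios of Myf6 were -0.63 in females and -0.77 in males, under 2-fold and smaller in size than those of Myog, at -0.67 and -1.83.

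Counted together, 1 of 6 members was at least 2-fold lower in female KO cells and 0 of 6 were at least 2-fold higher. The background in that table was 4.4% of genes lower and 4.49% higher. In male KO cells 2 of 6 members were at least 2-fold lower and 2 of 6 higher, against 6.47% and 9.9% of all genes. Only Myf6 was at least 2-fold lower in both sexes, where the share over all genes was 2.12%, and nothing is read from that count because Myf6 was tested through its WT column alone. In KI cells 0 of 6 members passed 2-fold in either direction, against 0.893% of genes lower and 3.86% higher. The median ratio of the members was -0.65 in female KO, -0.57 in male KO and -0.29 in KI cells. The female call was Myf6, and the male calls include Myf6 among the lower and Pax3 among the higher. Both genes were tested in the KO tables through 1 column alone, and both enter the medians. Nothing is therefore read from these counts or medians against the shares over all genes. With 6 members chosen as a family they describe the group and carry no test.

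**Figure D2:**
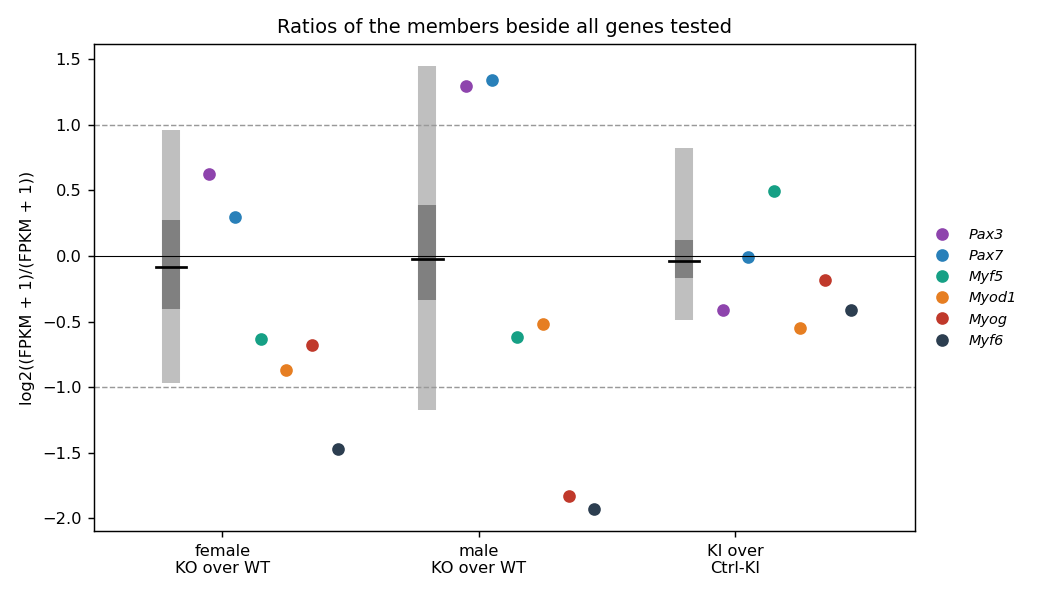
Ratios log2((FPKM + 1)/(FPKM + 1)), mutant over control, of the 6 members (coloured points) in the 3 comparisons; grey bars span the 5th to 95th percentile of all genes tested, darker grey the interquartile range, the short black line their median, and dashed lines 2-fold. Pax3 and Pax7 lay above 0 and the 4 MRFs below 0 in both KO comparisons, while in KI cells the ratios ran from -0.55 for Myod1 to 0.50 for Myf5.

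The 2 sexes are the only repeat of the KO comparison, so their ratios were fitted together with limma over 10525 genes, with 1 residual degree of freedom. Each member had the same direction in both sexes, which for Myf6 and Pax3 comes with the filter, so their p-values below are not evidence of that direction. Myf6 was at -1.70 ± 0.28 (mean log2 ratio ± moderated SE, 2 of 2 sexes lower) and had an adjusted p of 0.0893 by limma with Benjamini-Hochberg adjustment. Myog was at -1.25 ± 0.31 with a limma adjusted p of 0.120, and Myod1 at -0.69 ± 0.21 with a limma adjusted p of 0.160. For Pax3, Myf5 and Pax7 the mean ratios were 0.96 ± 0.30, -0.62 ± 0.24 and 0.82 ± 0.33, with limma adjusted p of 0.173, 0.239 and 0.249. None of the 6 passed the threshold of 0.05. Over all genes 1 was called higher (0.0095%) and 0 lower (0%) by limma, where 9.58% and 10.3% had an unadjusted p under 0.05 in those directions. The single call was Gt(ROSA)26Sor, a noncoding RNA from the site of the reporter, with a mean log2 ratio of 4.15 ± 0.24 and a limma adjusted p of 0.0471. Its log2 ratio was 3.99 in females and 4.31 in males, although the labels give female KO and WT mice the same reporter. Whether KO and WT cells were matched in reporter and sorting was not tested. Both sexes lay below WT for 39% of genes and above WT for 27.5%, against 4 of 6 and 2 of 6 members. Those member counts include Myf6 and Pax3, so nothing is read from them.

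Ratios between members within a column do not depend on how that column was scaled. Myog supplied 87.9% of the summed FPKM of the 4 MRFs in female KO and 86.4% in female WT cells, and Myod1 11.1% and 12.6%. In males the Myog share was 57.7% in KO and 77.1% in WT cells, and the Myod1 share 42.1% and 22.6%. In KI and Ctrl-KI cells Myog supplied 81.8% and 77.8%, and Myod1 17.9% and 22.02%. The male shares lay farther apart than the female ones, but the wide bounds of Myog and Myod1 in both male columns leave the male difference unresolved. Myog per Myod1 was 7.89 in female KO and 6.87 in female WT cells, 1.37 in male KO and 3.41 in male WT cells, and 4.56 in KI and 3.53 in Ctrl-KI cells. The sum of the 4 factors was 929 FPKM in female KO and 1511 FPKM in female WT cells, 1666 FPKM in male KO and 4439 FPKM in male WT cells, and 3457 FPKM in KI and 4117 FPKM in Ctrl-KI cells.

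The ratio of Pax7, a progenitor factor, to Myod1, a determination factor, was higher in the mutant column of all 3 tables, without a test. Pax7 stood at 5.35% of the Myod1 level in female KO and 2.28% in female WT cells, at 2.32% in male KO and 0.579% in male WT cells, and at 0.532% in KI and 0.367% in Ctrl-KI cells. These are 2.35-fold, 4.01-fold and 1.45-fold higher ratios in the mutant columns. The bounds of Pax7 and of Myod1 overlapped between mutant and control in every table. At the low end of the family Pax3 and Myf6 differed in order. Pax3 was 2.32 times the Myf6 level in female KO and 0.207 times in female WT cells, and 8.30 times in male KO and 0.138 times in male WT cells. In KI and Ctrl-KI cells it was 0.305 and 0.379 times. Myf6 therefore exceeded Pax3 in the 4 columns without a KO label and was below it in both KO columns. The deposited bounds of Pax3 and Myf6 overlapped in each KO and each WT column, so the order of the pair there is within its error. They were apart in KI and Ctrl-KI cells. Pax3 reached 1 FPKM in the KO columns alone and Myf6 in the WT columns alone, so the differing order also comes with the filter.

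**Figure D3:**
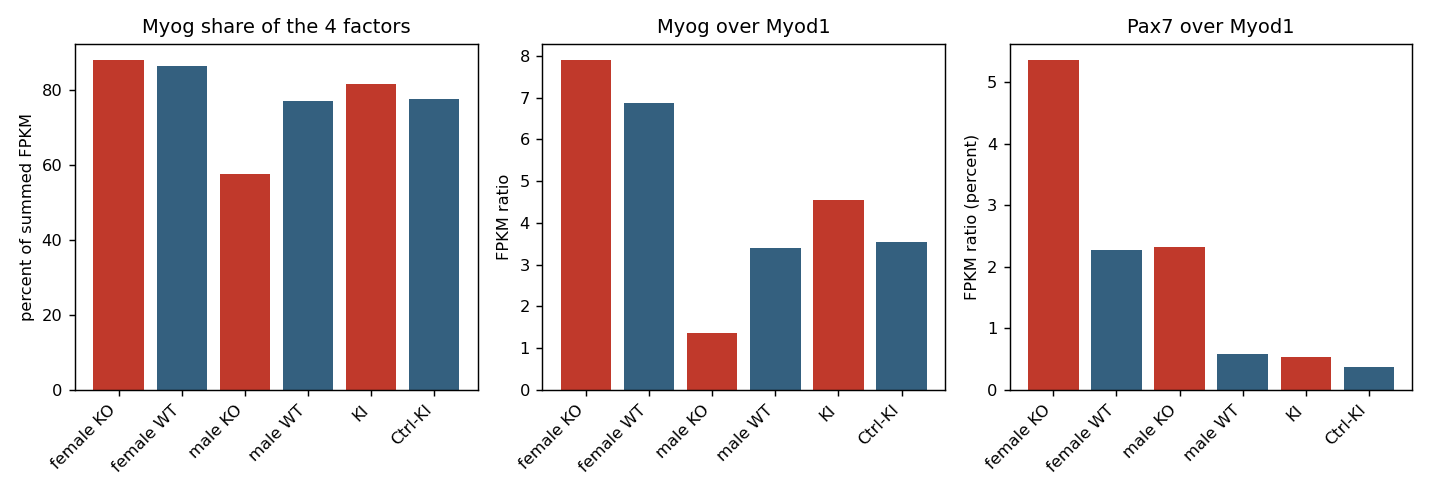
Share of Myog in the summed FPKM of Myf5, Myod1, Myog and Myf6 (left, percent), Myog over Myod1 (middle, FPKM ratio) and Pax7 over Myod1 (right, percent) in each column, with mutant columns in red left of their controls in blue. Myog over Myod1 was lowest in male KO cells at 1.37, and Pax7 over Myod1 was higher in each mutant column than in its control.

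The order of levels was otherwise steady. Myog came before Myod1 in all 6 columns, with overlapping bounds in male KO and male WT cells and bounds apart in the other 4, and the remaining 4 genes were all under 20 FPKM. Myf5 and Pax7 held the third and the fourth places in every column, with Myf5 ahead in female KO, female WT, KI and Ctrl-KI cells and Pax7 ahead in male KO and male WT cells. Their bounds overlapped in the 4 KO and WT columns and were apart in KI and Ctrl-KI cells. Across columns, Myod1 ranged from 103.5 FPKM in female KO to 1005 FPKM in male WT cells and Myog from 817 FPKM in female KO to 3424 FPKM in male WT cells. Transcript models also differed between the tables, and their part in these spans was not tested. In the KI table the Myod1 locus reached 6505 bases farther upstream than in the KO tables and carried 7 start sites instead of 1, and the Myf5 locus reached 2679 bases farther upstream with 5 start sites. The male table also differed from the female one. There the Myog locus reached 414 bases farther upstream and 2659 bases farther downstream, and the Pax7 locus 1278 and 1027 bases farther. Both carried 2 start sites instead of 1 in the male table, and likewise in the KI table. Pax3 and Myf6 had identical loci in all 3 tables.

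Genes whose 3 ratios lay nearest to a member's were sought among 4827 unmerged genes averaging at least 10 FPKM in each table. Nearest to Myog were Tmem182 (Euclidean distance 0.09 over the 3 log2 ratios), Ank1 (0.14), an ankyrin, and Baiap2l1 (0.15). Tmem182 had log2 ratios of -0.76, -1.84 and -0.19 in female KO, male KO and KI cells. Nearest to Myod1 were Skp1a (0.08), a subunit of SCF ubiquitin ligases, Sec11c (0.10), a signal peptidase subunit, and Lrp4 (0.11), the agrin receptor of the neuromuscular junction. Nearest to Pax7 were Frmd8 (0.16), Arl4c (0.18) and Chka (0.18), the last a choline kinase. Only 3 comparisons enter this measure, so it ranks likeness and shows no relation.

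In males, most loci without a gene symbol near Pax7, Myod1 and Myog had the direction of that gene. Loci without a symbol within 60 kb of a member were examined after the values were seen, and the male and KI tables list such loci. Near Pax7, 9 of 9 such loci were higher in male KO than in male WT cells, against 43.4% of all 5678 loci without a symbol. The most abundant, 9.41 to 11.9 kb upstream of the Pax7 start, was 1.004 FPKM in male KO and 0.289 FPKM in male WT cells. Near Myod1, 11 of 12 were lower in male KO cells, and near Myog 6 of 6, against a background of 56.6%. Several of the 12 lie where the KI table has a locus named Otog, which ends 47.6 kb upstream of Myod1. Some of them share the same coordinates. Whether they belong to Otog was not tested. At Myod1 the locus 8.76 to 10.4 kb upstream was 0.0817 FPKM in male KO and 0.521 FPKM in male WT cells. The 6 loci upstream of Myog lay within 0.0492 to 0.107 FPKM in male KO and 0.174 to 0.372 FPKM in male WT cells, with a median log2 FPKM ratio of -1.62. In the KI table the same surroundings gave 4 of 4 lower near Pax7, 4 of 9 lower near Myod1 and 1 of 2 lower near Myog, against 46.9% lower and 53.1% higher of all such loci. Nearly all of these values are under 1 FPKM, and neighbouring loci may be pieces of 1 transcript, so their counts are not independent.

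**Figure D4:**
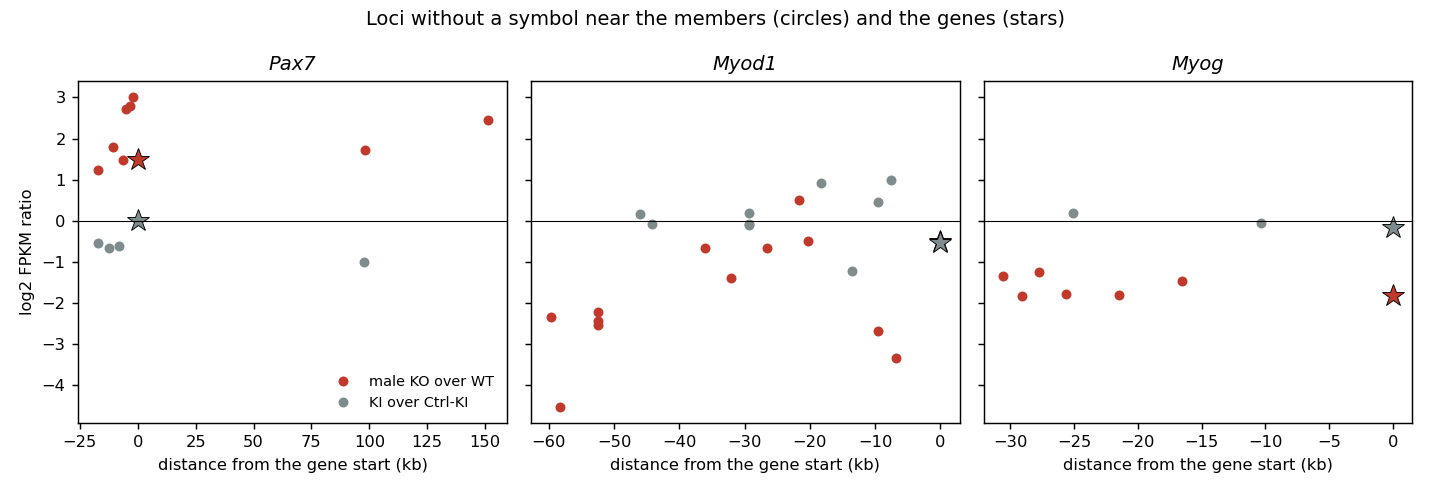
Log2 FPKM ratio, without a pseudocount, of loci without a gene symbol near Pax7, Myod1 and Myog (circles) against their distance from the gene start in kb, negative upstream, with the gene itself as a star at 0; red is male KO over WT and grey KI over Ctrl-KI. A Pax7 locus listed at 0 in male WT cells has no ratio and is not drawn. Red circles lie above 0 around Pax7 and below 0 around Myog, with 1 exception above 0 around Myod1, where the 2 stars nearly coincide.

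Targets of the MRFs were lower in KO cells of both sexes. Among 22 known targets of Myod1 or Myog, 16 of 22 were at least 2-fold lower in female KO cells (4.4% of all genes), with a median of -1.17. In male KO cells it was 15 of 21 (6.47% of all genes), with a median of -2.05, and in KI cells 1 of 21 loci (0.893%), with a median of -0.40. With TPM over all loci the KI count was 17. The call in KI cells was Cdkn1c, a cell cycle inhibitor, at 86.8 FPKM in KI and 267 FPKM in Ctrl-KI cells. Tnni1, slow troponin I, was 431 FPKM in female KO and 1111 FPKM in female WT cells, and 434 FPKM in male KO and 1857 FPKM in male WT cells. Chrna1, the alpha subunit of the acetylcholine receptor, was 126 FPKM in female KO and 269 FPKM in female WT cells, and 374 FPKM in male KO and 857 FPKM in male WT cells. Cdh15, the M-cadherin gene, was 46.1 and 74.0 FPKM in female KO and WT cells and 217 and 433 FPKM in male KO and WT cells, under 2-fold in both. All 22 targets tested in females and all 21 in males were below WT, against 56.7% and 51.6% of all genes. Myh3 is merged with Myh4 in the male table and was not estimated in male WT cells.

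Of 13 cofactors 2 were at least 2-fold lower in female KO cells, 4 in male KO cells and 0 in KI cells, against 4.4%, 6.47% and 0.893% of all genes, and 0 were at least 2-fold higher in any table. With TPM over all loci the lower counts were 1, 6 and 5. Smyd1, a muscle methyltransferase, was called in both sexes, at 15.9 FPKM in female KO and 42.7 FPKM in female WT cells and 42.1 FPKM in male KO and 119.6 FPKM in male WT cells. Mef2a, which partners with MRFs on muscle promoters, was 63.3 and 94.9 FPKM in female KO and WT cells, 125 and 303 FPKM in male KO and WT cells, and 135 and 234 FPKM in KI and Ctrl-KI cells. Mef2c, of the same family, was 25.4 FPKM in male KO and 168 FPKM in male WT cells. The general coactivators stayed within 2-fold: Ep300 was 22.4 FPKM in female KO and 17.4 FPKM in female WT cells, and 14.2 FPKM in male KO and 15.6 FPKM in male WT cells. Of the 3 E proteins, 0 reached 2-fold in any table, and Tcf3 was 43.3 FPKM in male KO and 23.6 FPKM in male WT cells. Tcf4 went the other way in males, at 34.1 FPKM in KO and 49.2 FPKM in WT cells. It was also the 1 E protein of 3 below control in KI cells, at 30.5 FPKM against 48.8 FPKM, with bounds apart.

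None of 16 inhibitors of the MRFs tested reached 2-fold in female KO cells, against 4.49% of all genes higher and 4.4% lower, while in male KO cells 5 of 15 were at least 2-fold higher and 2 lower, against 9.9% and 6.47% of all genes. These counts depend on the scaling. With TPM over all loci the male counts were 0 higher and 4 lower, and in females 2 were higher with a pseudocount of 0.1 FPKM, with median-centred ratios or with either TPM. Id2 and Id3, which sequester E proteins, were 67.7 and 375 FPKM in male KO cells, against 21.8 and 109 FPKM in male WT cells. In females Id3 was 35.2 FPKM in KO and 49.6 FPKM in WT cells. Snai2, a repressor of E-box genes, was 27.6 FPKM in male KO and 7.53 FPKM in male WT cells, and Id4 and Twist1 were the other 2 higher calls. The lower calls were Zeb1 (16.1 FPKM in male KO and 37.3 FPKM in male WT cells) and Bhlhe41 (11.96 and 26.1 FPKM in male KO and WT cells). In KI cells 3 of 16 were at least 2-fold higher (3.86% of all genes): Twist1 at 5.70 FPKM against 0.472 FPKM in Ctrl-KI cells, Twist2 at 2.58 FPKM against 0.0474 FPKM, and Bhlhe40 at 17.0 FPKM against 5.62 FPKM. Twist1 and Twist2 are also expressed by connective tissue cells, and the fibro-adipogenic markers in the same columns summed to 302 FPKM in KI and 9.62 FPKM in Ctrl-KI cells. The part of those cells in the Twist values was not tested.

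Of the upstream factors 1 of 9 tested was at least 2-fold higher in female KO cells (Meox2), 1 of 7 in male KO cells (Eya2), and 0 of 7 in KI cells. Lbx1, a homeobox factor of migrating muscle progenitors, was at least 2-fold lower in KI cells, at 18.0 FPKM against 44.4 FPKM in Ctrl-KI cells. Among 7 Pax7 cofactors, which include Wdr5 and Ash2l of the H3K4 methyltransferase complexes, 0 reached 2-fold in any table. Of 5 further Pax targets, 0 were called in female KO cells, 2 were at least 2-fold higher in male KO cells (Id3, which also stands among the inhibitors, and Met at 25.9 FPKM against 9.38 FPKM in male WT cells) and 1 in KI cells (Fgfr4 at 3.71 FPKM against 1.25 FPKM in Ctrl-KI cells).

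**Figure D5:**
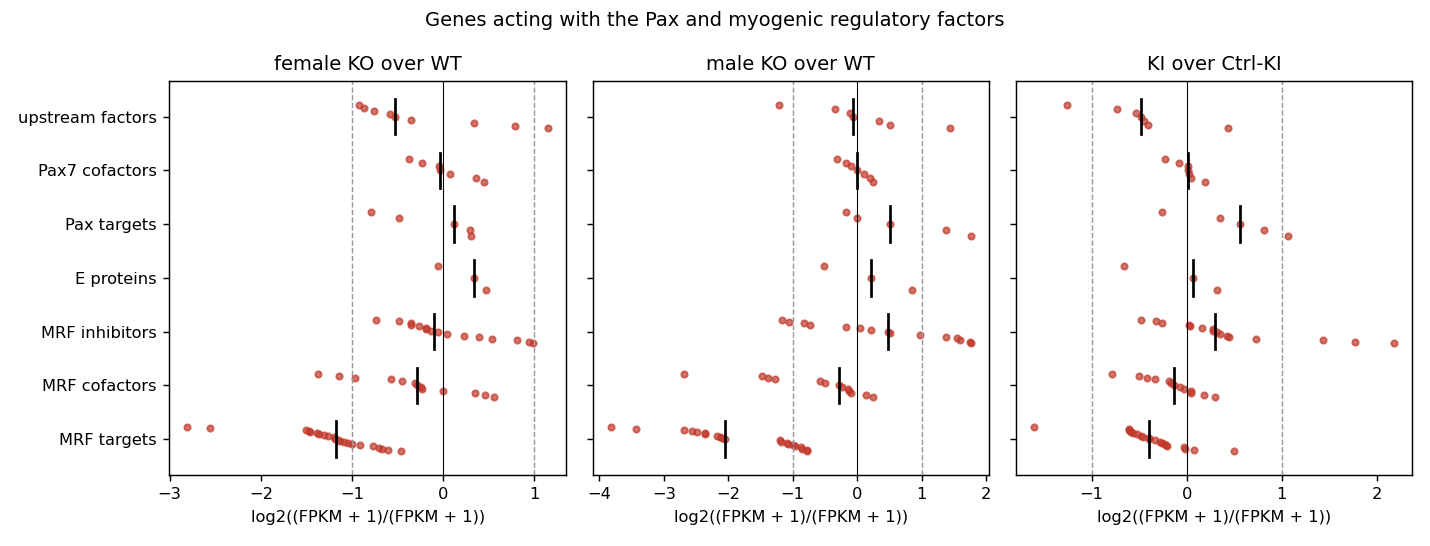
Ratios log2((FPKM + 1)/(FPKM + 1)), mutant over control, of the tested genes in 7 groups that act with the members, for the 3 comparisons; each point is 1 gene, black lines are medians and dashed lines 2-fold. MRF targets lay left of 0 in both KO comparisons, with medians of -1.17 in females and -2.05 in males, against -0.40 in KI cells.

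The scale of a column touches all directions above. Loci without a symbol carried 86.2% of the FPKM in male KO and 72.9% in male WT cells, and 77.6% in KI and 57.2% in Ctrl-KI cells. Rescaling to TPM over all loci shifted the median ratio by -0.68 in the male and -0.73 in the KI table, and rescaling over loci with a symbol shifted it by 0.18 for female KO, 0.19 for male KO and 0.10 for KI cells. The share of 2-fold calls that were higher was 60.5% in males and 81.2% in the KI table as deposited, and 9.12% and 10.4% with TPM over all loci. In females it was 50.5% as deposited, 63.2% with median-centred ratios and 73.7% with TPM. In males it was 72.2% with TPM over loci with a symbol. No member changed direction in either KO comparison under these scalings.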

How the data were processed

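RNA-seq of 8 libraries in 6 groups was used, with groups taken from the sample titles. Per the file headers, the authors deposited FPKM with confidence bounds in the gene tracking layout of Cufflinks. Reads were handled on mm9 with Cufflinks 2.2.1, Cuffdiff, edgeR, HTSeq 0.6.1, TopHat2 2.0.12, bedtools 2.16.2 and Bowtie2 2.2.4, per the submitters' processing notes, which give no roles. The annotation, the level of the bounds and how libraries were scaled to each other are not given in the sources used here. The KI table pools its libraries, so the planned form of that comparison, without a test, was kept. Starts in the loci count from 0 (227 of 233 microRNA loci within 5 bases of the RefSeq length) and are printed 1 higher.

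Loci with a symbol, a successful estimate and at least 1 FPKM in 1 column were tested with a pseudocount of 1 FPKM at 2-fold. Where a symbol had several loci, the most abundant was used for lists and the joint fit. KO ratios of both sexes were fitted with limma 3.58.1 (R 4.3.3, mean-variance trend, checked on simulated data), adjusted over all genes at 0.05. Python 3.11.15 and pandas 2.3.3 handled the tables. Strand is not stated, so overlapping and antisense genes are uncertain. Whether libraries of a group came from separate animals is not stated. The naming rule took the members, Kdm6a, genes of fixed lists and the 3 nearest genes to Pax7, Myod1 and Myog. Members and lists were chosen with earlier results of these data known. Alternatives were pseudocounts of 0.1 and 5 FPKM, other filters, centring, TPM, non-overlapping bounds, no trend, and the KI ratio as a further value. Values of some list genes are not reported here.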

Additional observations from a re-analysis of the deposited data

Results flagged for a closer look

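For 4 results the KO effect had opposite signs in the sexes and differed by at least 2-fold between them; with 1 library a group, the difference between the sexes was not tested in any of them. Myog per Myod1 changed by 0.20 on the log2 scale in females (7.89 in KO and 6.87 in WT cells) and by -1.31 in males (1.37 in KO and 3.41 in WT cells), a difference of 1.51. Id3, an inhibitor of E proteins, had log2 ratios of -0.48 in females and 1.77 in males, a difference of -2.25. For Snai2, a repressor of E-box genes, the ratios were -0.05 in females and 1.75 in males, a difference of -1.80. For Pitx3, a homeobox factor upstream of Myod1, they were -0.87 in females and 0.35 in males, a difference of -1.22. The opposite signs of Snai2 and Pitx3 depend on the scaling, since the female ratio of Snai2 is above the female median of -0.08 and the male ratio of Pitx3 is smaller than the shift of -0.68 that TPM over all loci gives in males. Endothelial markers summed to 56.6 FPKM in male KO and 0.168 FPKM in male WT cells, against 23.1 and 12.6 FPKM in female KO and WT cells, and their part in these differences was not tested.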

How the results depend on the processing

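No paired analysis was possible because the KI table, the one with shared replicate numbers, holds 1 pooled column per group; the joint KO fit is matched by sex only. Of 90 member ratios recomputed with another pseudocount or scaling, 85 lay within the range the deposited bounds allow, 3 changed sign (Pax7 in KI cells with median-centred ratios, 0.03, or TPM over loci with a symbol, 0.08, and Myf5 in KI cells) and 10 changed their 2-fold call. The 5 KI ratios beyond their bounds were Pax3 at -0.79 with a pseudocount of 0.1 FPKM and, with TPM over all loci, Pax7 at -0.59, Myf5 at -0.22, Myod1 at -1.38 and Myog at -1.01. At a pseudocount of 5 FPKM the male KO ratios of Pax3 and Pax7 were 0.50 and 0.98, and at 0.1 FPKM the female ratio of Pax3 was 1.05.

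Counts of genes at least 2-fold higher and lower changed as follows. In females they were 554 and 543 as reported, 938 higher with a pseudocount of 0.1 FPKM, 196 and 246 with 5 FPKM, 1197 higher with either TPM, and 81 and 29 at 2-fold with bounds apart. In males they were 1132 and 740, with 443 and 475 at 5 FPKM, 253 and 2520 with TPM over all loci, 1821 higher with TPM over loci with a symbol, and 69 and 30 at 2-fold with bounds apart. For KI they were 428 and 99, with 168 lower at 0.1 FPKM, 177 and 47 at 5 FPKM, 196 and 1685 with TPM over all loci, 680 higher with TPM over loci with a symbol, and 262 higher with a filter of 5 FPKM. Of 240 list counts, 210 stayed within 1.5 times.

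The limma fit called 1 gene higher and 0 lower. It called 0 higher with no trend, with the KI ratio added, with a pseudocount of 5 FPKM, with no filter and with median-centred ratios, 51 higher and 95 lower with a filter of 5 FPKM, and 52 and 94 with TPM over all loci. Myf6 had a mean ratio of -1.65 and a limma adjusted p of 0.000965 with TPM over all loci, in a range of 0.000965 to 0.290 over its 8 alternatives. The cause of that range was not tested. As deposited, Myf6 reached 1 FPKM in the WT column alone in both sexes, so nothing about its direction is read from these p-values. The other 5 members stayed above 0.05 under each alternative fitted. With the male ratio alone the members ran from -1.93 to 1.34, and with the female ratio alone from -1.47 to 0.62, each in the direction of its mean. Myf6 and Pax3 could not be fitted with a filter of 5 FPKM, and Pax3 not with the filter on TPM over all loci. Depth is unknown, and the wide male bounds limit what a male ratio can show.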

Other observations

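Annotated neighbours of Myog also had lower values in KO cells. Mybph, a myosin-binding protein gene and a known MRF target, was 458 FPKM in female KO and 949 FPKM in female WT cells, and its locus, merged with Chi3l1, was 162 FPKM in male KO and 836 FPKM in male WT cells and 709 FPKM in KI and 972 FPKM in Ctrl-KI cells. Adora1, an adenosine receptor gene, was 61.5 FPKM in female KO and 106 FPKM in female WT cells, 23.1 FPKM in male KO and 105 FPKM in male WT cells, and 89.9 FPKM in KI and 123 FPKM in Ctrl-KI cells. Adora1 is listed at the same coordinates as the Mybph locus in each table, so the 2 are not independent. The lower bound of Adora1 was 0 FPKM in every KO and WT column. Ppfia4, on the other side of Myog, was 58.1 FPKM in female KO and 118 FPKM in female WT cells and 15.4 FPKM in male KO and 53.8 FPKM in male WT cells. Tmem183a, beyond Ppfia4, was 32.4 FPKM in female KO and 39.8 FPKM in female WT cells and 30.1 FPKM in male KO and 36.7 FPKM in male WT cells. These neighbours were chosen after their values were seen. Next to Myod1, the potassium channel gene Kcnc1 was 1.33 FPKM in female KO and 2.99 FPKM in female WT cells and 1.24 FPKM in male KO and 2.36 FPKM in male WT cells.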
